A study of Mus musculus with 6 samples.

Results

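Cluster 13 of the control (CO) uterine epithelium is the cluster that the study calls mature gland, and its members here are the 62 cells that the authors' clustering of CO epithelial cells placed in it and that have a column of counts. They are 62 of 2583 clustered CO epithelial cells, or 2.40% (exact binomial 95% interval 1.85 to 3.07%), and 62 of the 48699 cells with counts in the series. The clustering table lists 64 cells, of which 2 have no counts and were not analysed. The comparison cells were the 204 and 123 cells of clusters 3 and 8, which the study calls developing gland, and all 2521 other clustered CO epithelial cells.

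The mice were CD-1 females given subcutaneous corn oil (CO) or diethylstilbestrol (DES, a synthetic estrogen) at 1 mg/kg/day on neonatal days 1 to 5, and uteri were taken at 12 months. The CO cells were 1 library pooled from 2 mice and the DES cells 1 library pooled from 4 mice, so the cells of cluster 13 cannot be assigned to a mouse and comparisons between clusters or libraries carry no test. Spatial RNA was measured in 2 CO and 2 DES uterine sections, 1 mouse each. The paper states that a pathologist first checked DES tissue for uterine adenocarcinoma, and that 2 mice per group were then selected. Their blocks were cored around chosen areas, so the sections are not a plain sample of each uterus. All mice, CO included, had been injected neonatally, and according to the study's methods the CO mice were collected in estrus.

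Uterine glands are epithelial tubes that bud from the luminal epithelium after birth and secrete proteases, protease inhibitors, transport proteins and cytokines into the uterine lumen. Prss28 and Prss29 encode the implantation serine proteinases ISP1 and ISP2, secreted proteases of the trypsin fold. Spink1 encodes a small secreted inhibitor of trypsin-like proteases, and Foxa2 a forkhead transcription factor that uterine gland formation requires.

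Prss28 and Prss29 are neighbours on the plus strand of chromosome 17 of mm10, at chr17:25308646-25311876 and chr17:25318654-25322684, with 6.78 kb between them. Their promoters (RefSeq, GRCm38.p6, plus strand, 250 bases before to 50 after the gene start, chr17:25308396-25308695 and chr17:25318404-25318703) are shown because these genes came first by the smaller of the 2 ratios given below, and varied together from cell to cell. Capitals mark the 2 runs of 15 bases that both promoters hold in the same order; runs of at least 10 bases were looked for.
Prss28: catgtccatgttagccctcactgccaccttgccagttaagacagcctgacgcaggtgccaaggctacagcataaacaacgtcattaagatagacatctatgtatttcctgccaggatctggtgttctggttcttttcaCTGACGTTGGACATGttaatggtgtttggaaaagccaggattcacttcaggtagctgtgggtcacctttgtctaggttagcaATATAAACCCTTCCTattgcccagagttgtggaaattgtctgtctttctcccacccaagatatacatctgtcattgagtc
Prss29: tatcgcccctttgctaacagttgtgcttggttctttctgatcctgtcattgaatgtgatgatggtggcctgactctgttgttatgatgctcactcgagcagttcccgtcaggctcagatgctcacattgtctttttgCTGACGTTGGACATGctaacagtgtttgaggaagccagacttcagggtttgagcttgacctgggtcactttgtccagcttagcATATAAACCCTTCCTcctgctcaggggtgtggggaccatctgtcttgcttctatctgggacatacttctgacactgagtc

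The run nearer the gene start contains the letters TATAAA, which begin at position -29 in both promoters. On either strand, TATAAA occurs in 13.6% of the 32851 promoters in the table, TGTTTAC (a forkhead motif) in 3.65%, ACAATGG (a SOX motif) in 3.66% and the estrogen response element (GGTCA and TGACC with 3 bases between them) in 0.0700%. Neither protease promoter holds the letters of the last 3 motifs in this window. Of the genes that lead the cluster (defined below with their values) together with Foxa2, 26 had a promoter in the table. Their 30 promoters included 7 with TATAAA and 2 with TGTTTAC, those of Dnajc10 and Etv5. The transcripts of Prss28 and Prss29 share no run of 30 bases, so reads of that length separate them.

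The 62 cells held 890556 UMIs (unique molecular identifiers, each counting 1 captured RNA molecule), with a median of 12201 UMIs per cell (2630 to 54759). The median was 17214 in clusters 3 and 8 and 23830 in all other clustered cells, so the cluster is shallower than its comparison cells. All 62 cells carry the authors' cell type Epithelial. When the authors clustered CO and DES epithelial cells together, 59 of the 62 fell in cluster 19 of that clustering, whose 62 cells are all from CO, and the other 3 fell in its cluster 13. The paper proposes that, in this joint clustering, cluster 19 is mature gland and cluster 13 is developing gland. Of the 62 cell barcodes, 1 also occurs in the DES library, against 13 of the 2583 clustered CO cells and 180 of all 32387 CO cells.

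Of the 4 marker genes, Prss29, Prss28 and Spink1 were far higher in the cluster than in any other CO epithelial cluster. Foxa2 was also highest there, by a smaller ratio. Levels are counts per 1000000 UMIs (CPM), summed over the cells of a group, with exact Poisson 95% intervals that, like all intervals here, cover counting error only. Prss29 was at 51277 CPM (50808 to 51749) in the cluster, against 47.6 CPM in clusters 3 and 8 and 22.9 CPM in all other clustered cells, ratios of 1077 and 2243. In the other clustered cells 1 cell of cluster 7 held 760 of the 1781 Prss29 UMIs, 306 of the 535 Prss28 UMIs and 395 of the 1197 Spink1 UMIs. Without that cell these cells were at 13.1, 2.94 and 10.3 CPM, and the ratios to them were 3909 for Prss29, 5361 for Prss28 and 1731 for Spink1. Prss29 was the most abundant transcript of the cluster, with 5.13% of all UMIs.

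Spink1 (chr18:43728082-43737557, minus strand) was at rank 2 by level, at 17834 CPM (17557 to 18113), against 69.3 and 15.4 CPM. Prss28 was at rank 4, at 15773 CPM, against 10.7 and 6.87 CPM, ratios of 1473 and 2297. The 3 secreted proteins together took 8.49% of the cluster's UMIs. Foxa2 (chr2:148042877-148046969, minus strand) was on another scale: 73 UMIs or 82.0 CPM (64.3 to 103), rank 1648 by level, but still 23.6 times its level in clusters 3 and 8 (3.47 CPM) and 12.5 times that in all other clustered cells (6.53 CPM).

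**Figure D1:**
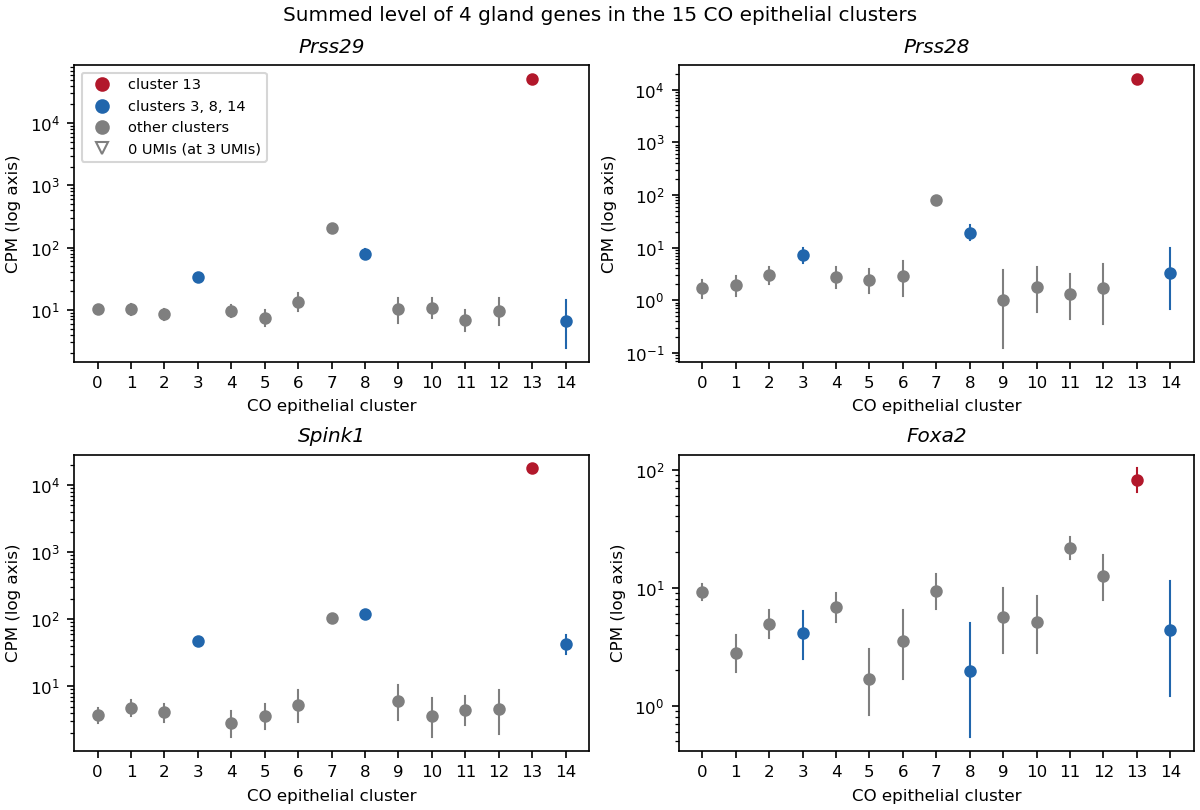
Summed level (CPM, log axis) of the 4 marker genes in each of the 15 CO epithelial clusters, with exact Poisson 95% intervals. Cluster 13 (red) is at 51277, 15773, 17834 and 82.0 CPM for Prss29, Prss28, Spink1 and Foxa2. The next highest clusters are 7 for both proteases, 8 for Spink1 and 11 for Foxa2; without 1 cell, cluster 7 is at 13.5 CPM for Prss29 and 2.60 CPM for Prss28, below cluster 8 (80.0 and 19.3 CPM).

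After each cell was thinned to 3000 UMIs, which left out 2 of the 62, Prss29 was detected in 58 of 60 cells (96.7%, exact interval 88.5 to 99.6%). Prss28 was detected in 57 cells (95%) and Spink1 in 55 (91.7%). Cell types that should lack Prss29 served as background: 8.06% of stromal cells (median depth 8726.5 UMIs), 6.65% of mesothelial cells (10436) and 10.3% of lymphocytes (4033) had a Prss29 UMI. Clusters 3 and 8, at 5.88% and 6.50% (median depths 18535.5 and 14735 UMIs), were at or below those shares but above the thinned luminal clusters (3.13%, median depth 25654), cluster 11 (3.09%, 34009) and cluster 12 (1.41%, 20061). Without thinning the Prss29 share was 96.8% in the cluster and 25.2% in the luminal clusters.

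Foxa2 was detected in 7 of 60 thinned cells (11.7%, 4.82 to 22.6%), against 0.134% of mesothelial and 0.384% of stromal cells. Cluster 11 was at 12.4% at this depth and at 21.8 CPM in summed level, against 82.0 CPM in cluster 13. Foxa2 detection depends on depth: 27 of the 62 cells (43.5%) had a Foxa2 UMI without thinning, as did 42 of the 97 deeper cells of cluster 11 (43.3%). After thinning to 5000 UMIs the share was 27.8% (16.5 to 41.6%) in the cluster and 10.3% (5.06 to 18.1%) in cluster 11. Clu, a secreted chaperone, was detected in all 60 thinned cells, against 39.7% in cluster 3, 44.7% in cluster 8 and 66.0% in cluster 11. Sox9, a transcription factor of gland and progenitor cells, was detected in 75%, against 30.9%, 21.1% and 57.7%.

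The cells of the cluster differed widely in how much of their RNA the 3 secreted products took. The share of Prss29, Prss28 and Spink1 in a cell's UMIs ran from 0 to 41.2%, with a median of 5.09% and quartiles at 2.48 and 10.9%. It was at least 1% in 54 cells, at least 10% in 17 and at least 20% in 5. Prss29 itself ran from 0 to 4350 UMIs per cell (median 324.5), with 18 cells at 1000 UMIs or more and 4 under 10.

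Clu was spread more evenly over the cells than the 3 secreted markers. Every cell had Clu UMIs, at 3 to 261 per cell (median 50), and the 10 cells with the most held 42.6% of them, against 50.5% for Prss29, 62.8% for Prss28 and 64.2% for Spink1. Across the 62 cells, Spearman's rho between UMI shares was 0.89 for Prss29 with Prss28, 0.67 for Prss29 with Spink1, 0.42 for Prss29 with Sox9 and 0.09 for Prss29 with Clu. These are descriptions over cells of 1 library that share total counts, and the rho of the Prss29 share with a cell's UMI total was 0.25.

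**Figure D2:**
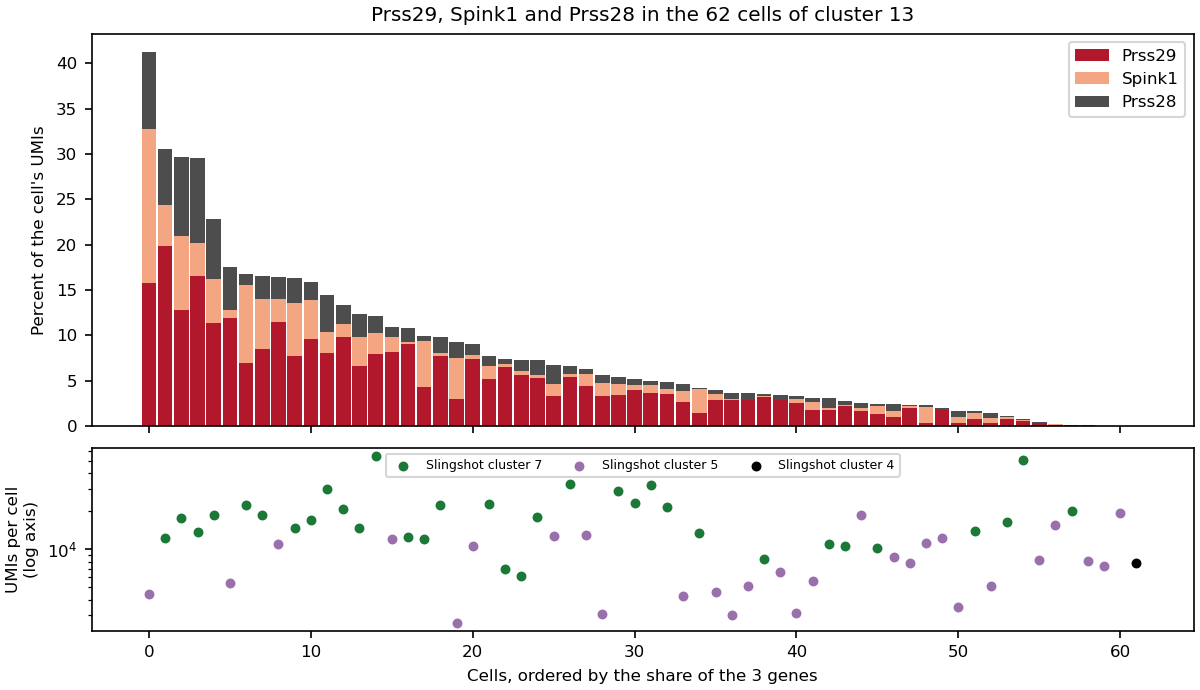
Upper panel: percent of each cell's UMIs from Prss29, Spink1 and Prss28 (stacked) in the 62 cells of cluster 13, ordered by their sum, which falls from 41.2% to 0. Lower panel: total UMIs of the same cells (log axis), coloured by the authors' Slingshot cluster.

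The authors also re-clustered the CO gland cells to order them with the trajectory tool Slingshot. Of the 62 cells, 33 lie in Slingshot cluster 7, 28 in cluster 5 and 1 in cluster 4. The 33 cells of cluster 7 had a median of 17721 UMIs and the 28 of cluster 5 a median of 7597, so depth moves with this split and its part in the differences was not tested. Prss29 was at 59064 CPM in the former and 31299 CPM in the latter, Spink1 at 20753 and 10299 CPM, and Sox9 at 1084 and 351 CPM.

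Foxa2 was at 105 CPM in the Slingshot cluster 7 cells and 21.4 CPM in the cluster 5 cells, a ratio of 4.89 (1.99 to 15.5). Of 1502 genes at 100 CPM or more in either set, 76 were at least 2-fold higher in cluster 7 and 54 at least 2-fold higher in cluster 5. The largest ratio toward cluster 7 was that of Fabp5, a fatty acid carrier, with 75 UMIs against 1 (ratio 26.9, 4.69 to 1078), of which 1 cell held 39 (ratio without it 13.2). Lyz1, Pck1, Agr2, Bpifb5 and Hp followed, at 6.2 to 7.47 times their level in cluster 5. The ratio of Lyz1 rested on 1 cell with 55 of its 104 UMIs and was 3.59 without it (1.44 to 11.5), and those of the other 4 were 4.35 to 6.10 without the cell that held most of each. The cells of cluster 5 had more of several developing gland products: S100g, a calcium-binding protein, was at 1054 against 80.1 CPM, Prap1 at 3772 against 434 CPM and the water channel Aqp8 at 321 against 21.6 CPM. In these 28 cells 1 cell held 657 of the 880 Prap1 UMIs, and without it the Prap1 ratio fell from 8.69 to 2.36 (1.97 to 2.82). Without the cell that held most of each, the ratios of S100g and Aqp8 were 8.79 and 12.4. Much of the S100g and Prap1 of these cells lay in the 3 cells of joint cluster 13 described below. Ratios without all 3 were not computed.

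A few members stood apart from the rest. The cell in Slingshot cluster 4 had 7731 UMIs and none of Prss29, Prss28, Spink1 or Foxa2, with 3 Clu UMIs. The 3 cells that the joint CO and DES clustering placed in its cluster 13, which the paper proposes is developing gland, had 42, 27 and 306 Prss29 UMIs. The cell with 27 held 657 of the 1165 Prap1 UMIs of the 62 cells, and the cell with 306 held 95 of their 316 S100g UMIs. All 3 lie in Slingshot cluster 5. In the same order, they held 60, 11 and 95 of the 246 S100g UMIs of its 28 cells, and 8, 657 and 52 of the 880 Prap1 UMIs. The part of these 3 cells in the higher developing gland products of Slingshot cluster 5 was not tested.

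Genes that lead the cluster were defined by size: at least 100 CPM in it and at least 4 times the level both in clusters 3 and 8 and in all other clustered CO epithelial cells. Of 1299 genes at 100 CPM or more, 36 (2.77%) met this rule, and they took 9.78% of the cluster's UMIs against 0.106% of those of clusters 3 and 8 and 0.0936% of those of the rest. By the smaller of the 2 ratios, Prss28 and Prss29 came first, and Ttr and Lyz1 (lower bounds), Spink1, Dkk3 and the keratin Krt83 followed.

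Ttr, which carries thyroid hormone and retinol-binding protein, had 109 UMIs (122 CPM) in the cluster and none in clusters 3 and 8, at least 282-fold higher when those clusters are set to 3 UMIs in sum. Lyz1, a lysozyme, also had 109 UMIs against none, but only 9 cells carried them and 1 cell held 55; its transcript shares 35.4% of its runs of 30 bases with Lyz2, so reads may be split between them. Obp2a, an odorant-binding lipocalin, was at 528 CPM against 5.50 CPM in clusters 3 and 8, and 10 of its 28 positive cells held 88.3% of its UMIs. It shares 14.1% of its runs of 30 bases with Obp2b.

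Scgb3a1, a secretoglobin of airway and gland secretions, was at 455 CPM, against 1.16 CPM in clusters 3 and 8 and 10.6 CPM in the rest (ratio to the rest 42.7, 37.9 to 48.2). Bpifb5, of the family of bactericidal and lipid-binding secreted proteins, was at 269 CPM against 6.16 CPM in the rest, with 84.6% of its UMIs in 10 cells. Hp, the haemoglobin-binding protein haptoglobin, was at 164 CPM against 1.30 and 2.76 CPM. Clu was at 4695 CPM (4554 to 4839), 21.7 times clusters 3 and 8 and 26.1 times the rest.

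Further leading genes act at the cell surface, in the matrix or in growth factor binding. Gas6, a ligand of the TAM receptor kinases, was at 406 CPM against 20.5 and 15.4 CPM. Igfbp4, which binds insulin-like growth factors, was at 292 CPM, against 22.6 and 21.2 CPM, and Fbln7, a fibulin, at 122 CPM against 1.30 and 7.59 CPM. Cd44, the hyaluronan receptor, was at 287 CPM against 9.84 and 14.4 CPM, and Dkk3, of the Dickkopf family of secreted proteins, at 102 CPM against 0.579 and 0.488 CPM.

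The remaining genes among the first 20 by the smaller of the 2 ratios are structural or metabolic. Krt83, a keratin otherwise known from hair, was at 435 CPM against 0.868 CPM in clusters 3 and 8, and Krt23 at 339 CPM against 12.0 CPM. Gpx2, a glutathione peroxidase of digestive epithelium, was at 366 CPM against 26.6 and 12.1 CPM. Pck1, a gluconeogenic enzyme, was at 138 CPM against 12.9 and 3.13 CPM, and Kctd14 at 174 CPM against 7.09 and 13.9 CPM. The other 16 leading genes had smaller ratios of 4.07 to 8.71 and include Sox9, Bmyc, Cited4, Etv5, Id2, Wnt5a and Cxcl14.

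**Figure D3:**
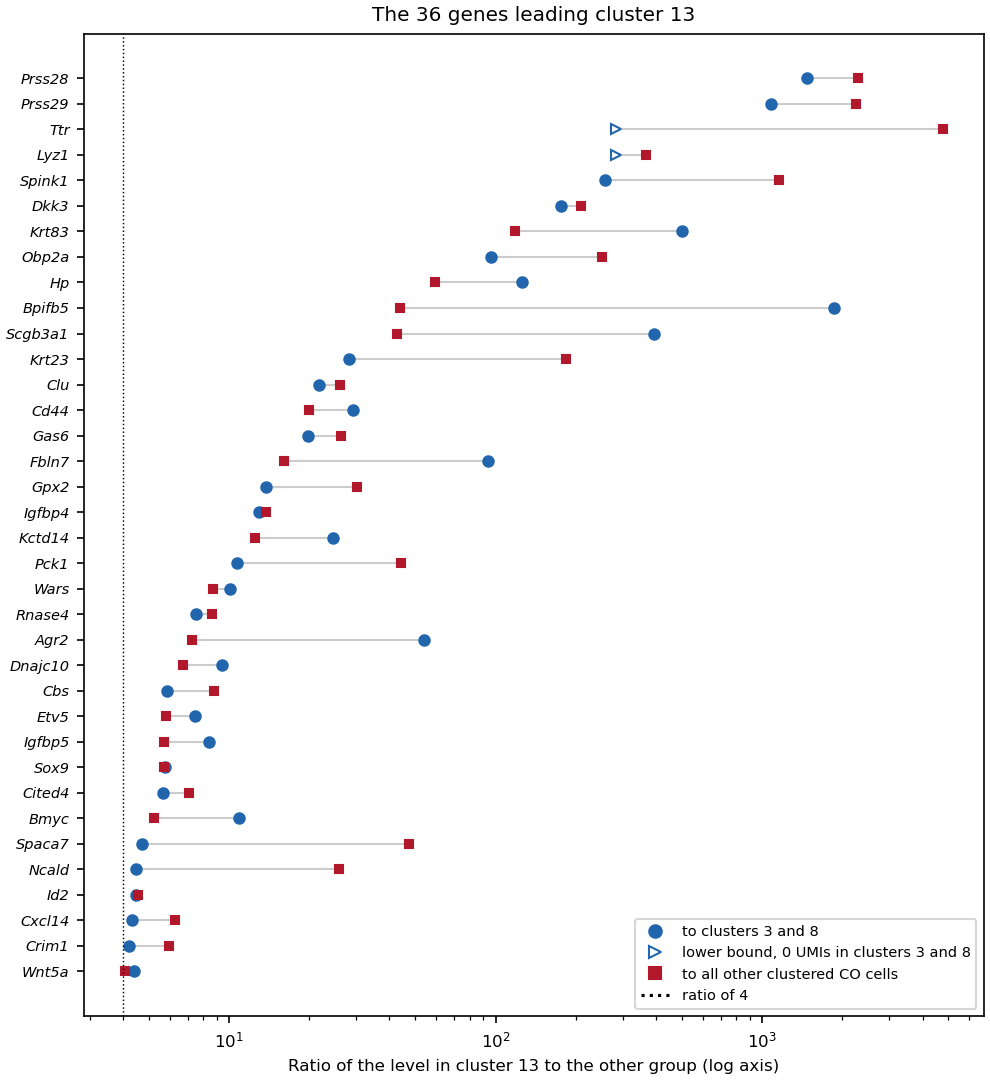
Ratio (log axis) of the CPM in cluster 13 to that in clusters 3 and 8 (circles; open triangles are lower bounds where clusters 3 and 8 had no UMI) and to all other clustered CO epithelial cells (squares), for the 36 leading genes. All points lie at 4 (dotted line) or above, up to 2297 for Prss28 and higher for Ttr, which had 2 UMIs in the rest.

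Against the next highest of the 14 other clusters, 31 of 36 leading genes were at least 2-fold higher and 9 at least 10-fold higher, where 3.54% and 0.693% of all 1299 genes at 100 CPM were; this follows in part from how they were chosen. The next highest cluster was 11, the CO cluster second in Foxa2, for 14 genes, cluster 12 for 7 and a developing gland cluster (3, 8 or 14) for 10, against 8.08%, 14.2% and 29% of all 1299 genes. Of the 5 genes under 2-fold, Agr2, a protein disulfide isomerase of secretory cells, was at 125 CPM in the cluster and 173 CPM in cluster 11. The other 4 were nearest in cluster 12: Kctd14 at 122 against 174 CPM in cluster 13, Wnt5a at 86.0 against 131 CPM, Bpifb5 at 168 against 269 CPM and Id2 at 95 against 153 CPM.

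Some leading genes were higher in another annotated CO cell type than in cluster 13, such as Igfbp4 (1195 CPM) and Wnt5a (731 CPM) in stromal cells and Gas6 (794 CPM) in mesothelial cells.

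Against clusters 3 and 8, 3121 genes with at least 50 CPM in either group were compared, and 338 (10.8%) were at least 2-fold higher and 248 (7.95%) at least 2-fold lower in cluster 13. The median ratio of all genes was 1.11. Because the abundant products take up much of the cluster's UMIs, totals were also computed without its 20 most abundant genes: 535 genes were then higher and 239 lower, which moved the higher share of these from 57.7 to 69.1%, and the median ratio became 1.24.

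The genes lowest in the cluster against clusters 3 and 8 include much of the developing gland programme. Klk1, the tissue kallikrein, had 5 UMIs (5.61 CPM) against 520 CPM, 92.6-fold lower. Hsd11b1, which regenerates active glucocorticoid, had 4 UMIs against 565 CPM, 126-fold lower. Mmp7, a matrix metalloproteinase of epithelium, was at 10.1 against 693 CPM and Olfm1, a secreted olfactomedin, at 13.5 against 710 CPM.

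Car4, a membrane carbonic anhydrase, had 1 UMI against 231 CPM (ratio 0.00485, 0.000123 to 0.0271), and the ligand Wnt7b 1 UMI against 108 CPM (0.0104, 0.000262 to 0.0579). Efhd1, Igfbp3 (an insulin-like growth factor-binding protein) and Nmb (the peptide neuromedin B) were at 5.61, 7.86 and 8.98 CPM against 270, 338 and 331 CPM. Ttpa, the carrier of vitamin E, had no UMI in the cluster and 112 CPM in clusters 3 and 8, at least 33.3-fold lower if set to 3 UMIs, and Atg9b and Krt17 were at least 21.4-fold and 15.7-fold lower.

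Prap1, a secreted proline-rich protein and the leading product of the developing gland clusters at 51504 CPM, was at 1308 CPM, 39.4-fold lower. Its level rested in large part on 1 cell: without the cell that held 657 of its 1165 UMIs the level was 581 CPM. In thinned cells Prap1 was detected in 73.3% of the cluster, within the range of mesothelial cells (68.4%), stromal cells (73.3%) and lymphocytes (85.2%), while all thinned cells of clusters 3 and 8 had it. Napsa, an aspartic protease, was detected in 18.3% against 98.5% and 93.5%, and Klk1 in 3.33% against 50% and 39.8%.

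**Figure D4:**
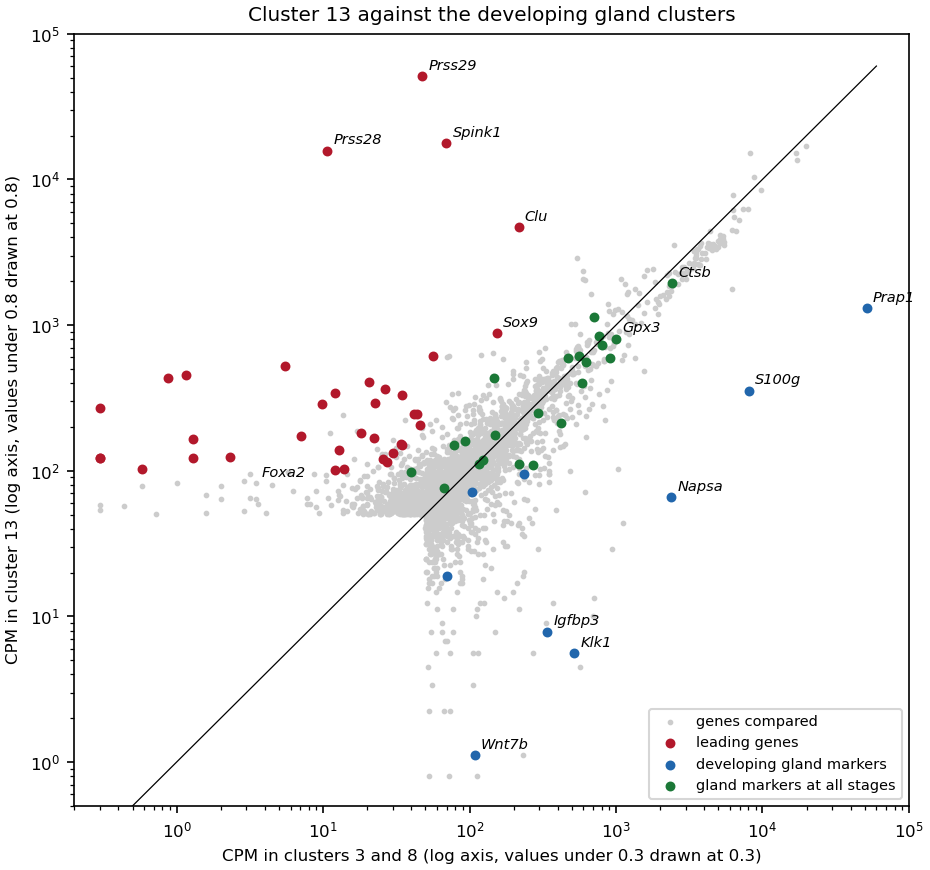
Summed level of 3121 genes in cluster 13 against clusters 3 and 8 (CPM, both axes log; the line marks equal levels). The leading genes (red) lie above the line and the developing gland markers (blue) below it, with Prap1 at 1308 against 51504 CPM, while the gland markers of all stages (green) lie along it.

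The list of markers of all gland stages, and part of that of developing gland markers, were chosen by the study on these same cells, so they are no independent evidence of direction. Of the 9 developing gland markers compared, 8 were at least 2-fold lower than in clusters 3 and 8, with a median ratio of 0.0278. Besides those named above, S100g was at 355 against 8071 CPM, Hif1a at 94.3 against 236 CPM and Tgfb2 at 19.1 against 70.0 CPM. Timp3, a tissue inhibitor of metalloproteinases, was between the limits (71.9 against 104 CPM), but lower than in cluster 3 (137 CPM) and 3.03 times its level in cluster 8 (23.7 CPM).

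The 22 markers of all gland stages, a shorter list than the paper's panel, were, by contrast, near the level of clusters 3 and 8 (median ratio 0.960). All 22 were at least 2-fold above the rest (median ratio 3.74). Sult1d1, a sulfotransferase, was at 847 CPM against 107 CPM in the rest, and Gpx3, a secreted glutathione peroxidase, at 807 against 109 CPM. The extracellular matrix protein Tgfbi and the calcium-binding Rcn1 were 2.93 and 2.45 times clusters 3 and 8, and the prostaglandin D synthase Hpgds was 2.49-fold lower.

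Against all other clustered CO epithelial cells, 3299 genes were compared, of which 360 (10.9%) were at least 2-fold higher and 445 (13.5%) at least 2-fold lower. The median ratio was 0.975; with the 20 most abundant genes left out of the totals, 535 were higher and 403 lower, the higher share moved from 44.7 to 57.0% and the median to 1.10. The lowest genes were Ube2c, a ubiquitin-conjugating enzyme of mitosis (1 UMI against 65.5 CPM, ratio 0.0172, 0.000434 to 0.0956), and the interferon-induced Ifit1 (1 UMI against 56.6 CPM, 0.0198, 0.000502 to 0.111). Tnip3, Ifi203 and Gda had 2 to 3 UMIs each, with ratios of 0.0307 (0.00372 to 0.111), 0.0316 (0.00651 to 0.0923) and 0.0391 (0.00806 to 0.114). Atp2c2, a calcium pump of the secretory pathway, had none, at least 14.9-fold lower.

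All 9 luminal markers compared with the rest were at least 2-fold lower in the cluster (median ratio 0.0855). Part of this list was selected by the study for low detection in its gland clusters, cluster 13 included, so the direction of those genes was set by that choice. Pla2g2e, a secreted phospholipase, was at 13.5 against 108 CPM. Markers of other cell types were far below their level in annotated CO cells. The summed mesothelial list was at 257 CPM against 4728 CPM in mesothelial cells, and the stromal list at 550 against 26602 CPM in stromal cells. The muscle and pericyte list was at 30.3 against 9407 CPM in pericytes, and the endothelial list at 25.8 against 5651 CPM in endothelial cells. The leukocyte list was at 126 against 12267 CPM in lymphocytes. Myocytes and myeloid cells were not used for these sums. The stromal sum was above those of clusters 3 and 8 (443 and 412 CPM) and of the rest (395 CPM), with 9 of 11 genes above the rest, and the leukocyte sum was above 69.2, 81.0 and 57.0 CPM. The mesothelial sum was below 401, 407 and 1306 CPM. The part of other cells' RNA in the cluster's levels was not tested. Cdhr1, Foxl2, Hoxa11, Rgs5, Mcam, Vwf and the leukocyte genes Csf1r, Adgre1, Cd3e, Cd3g and Nkg7 were at 0 UMIs. Of the leukocyte list only Lyz2 was high enough to be compared, and it made up 78.6 of the list's 126 CPM. Its level was 38.8 times that of clusters 3 and 8 and 19.4 times that of the rest. Of its 70 UMIs 1 cell held 25, and it shares 34.0% of its runs of 30 bases with Lyz1. The ciliated and basal lists summed to 15.7 and 5.61 CPM, with Krt14, Krt5 and Trp63 at 0.

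Other gene families were described by lists, with the ratio to clusters 3 and 8 given first, to be read beside the shares of all genes above. Of 9 serine proteases compared, the only ones higher were Prss29 and Prss28, while the membrane proteases Tmprss4 (95.4 against 349 CPM) and St14 (59.5 against 158 CPM) and Klk1 were lower (median ratio 0.967). Of 13 protease inhibitors 4 were higher and 2 lower (median 1.15). Beside Spink1 the higher ones were the intracellular serpin Serpinb6a (113 against 48.5 CPM) and the WAP-domain genes Wfdc3 (58.4 CPM against no UMI, at least 135-fold) and Wfdc18 (57.3 CPM against 3 UMIs, ratio 132, 42.7 to 661). Wfdc2, of the same domain family, was lower at 1772 against 6234 CPM, as was Spint1.

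Of 22 other secreted gland products 14 were higher and 4 lower (median ratio 6.45). The higher ones include Clu, Obp2a, Scgb3a1, Gas6 and the other secreted leading genes named above. Pigr, which carries IgA across epithelium, was at 645 against 144 CPM. Complement C3 (485 against 1566 CPM), the protease Ctsc, osteopontin (Spp1) and Olfm1 were lower. Against the rest the same list split into 11 higher and 9 lower (median 1.2), the lower including the iron-binding Lcn2 (847 against 7365 CPM) and Ltf (579 against 2347 CPM).

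Of 18 gland and Mullerian duct transcription factors 9 were higher and 2 lower against clusters 3 and 8 (median ratio 1.69) and the counts were the same against the rest (median 2.16). Sox9 was at 885 CPM against 153 and 155 CPM, and Bmyc, a Myc relative, at 612 against 56.0 and 117 CPM. Msx1, a homeobox factor, was at 286 against 107 and 77.1 CPM, the epithelial ETS factor Ehf at 262 against 93.0 and 74.6 CPM and the coactivator Cited4 at 247 against 43.8 and 34.8 CPM. Klf4 was lower in both comparisons (70.7 against 175 and 388 CPM), as was Elf3 against the rest (136 against 613 CPM).

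Steroid receptor and coregulator genes were mostly within the limits: of 6 compared, the estrogen receptor target and coregulator Greb1 was higher (95.4 against 14.5 CPM) and none lower (median ratio 1.48). Estrogen-responsive uterine genes split into 5 higher and 4 lower of 13 against clusters 3 and 8 (median 1.36), with the activin subunit Inhbb among the higher (86.5 against 17.8 CPM) and creatine kinase Ckb among the lower (14.6 against 153 CPM). Against the rest 13 of 17 were lower (median 0.243), among them Sprr2f at 2061 against 14548 CPM and Lcn2.

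Wnt pathway genes split evenly, with 4 higher and 4 lower of 11 (median ratio 0.876). The higher were Cd44, Wnt5a (131 against 29.9 CPM), Dkk3 and the nuclear effector Tcf7l2 (99.9 against 22.0 CPM), and the lower Ccnd1 (43.8 against 268 CPM), Myc, Hdac11 and Wnt7b. None of the 8 stem cell markers that the study used reached the comparison minimum against clusters 3 and 8, with Lgr5 at 10.1 CPM, Axin2 at 34.8 CPM and Aldh1a1 at 41.5 CPM in the cluster. Of 5 retinoid genes, Rdh10 (115 against 49.1 CPM) and Dhrs9, which oxidise retinol, were higher, and the retinoic acid-degrading Cyp26a1 (35.9 against 237 CPM), Lrat and the retinoic acid-making Aldh1a2 (6.74 against 68.4 CPM) lower (median 0.433).

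Glutathione and peroxide genes were higher in 7 and lower in 2 of 24 (median ratio 1.16). The peroxiredoxin Prdx6 was at 483 against 200 CPM, Cbs, an enzyme of cysteine synthesis, at 244 against 41.5 CPM and the transferase Gstm1 at 227 against 77.4 CPM. The endoplasmic reticulum and secretory list was close to clusters 3 and 8, with 3 higher and none lower of 41 (median 1.01). The 3 were the reticulum co-chaperones Dnajc10 (329 against 34.9 CPM) and Dnajc3 (299 against 145 CPM) and the signal peptidase subunit Sec11c (259 against 119 CPM). Against the rest 7 of 42 were higher, including Xbp1, the transcription factor of the unfolded protein response (651 against 221 CPM).

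Of 17 ion and water transport genes 5 were higher and 3 lower (median ratio 1.23). Fxyd3, a regulator of the sodium pump, was at 2899 against 542 CPM, the zinc importer Slc39a4 at 652 against 299 CPM and the sodium pump subunit Atp1b1 at 446 against 144 CPM, while carbonic anhydrase Car2 (222 against 839 CPM) and Aqp8 were lower with S100g. Of 18 keratin and junction genes 4 were higher and 2 lower (median 0.947): the claudin Cldn10 was at 1624 against 675 CPM and Cldn8 at 73.0 against 12.7 CPM, while Cldn7 and Cldn4 were lower.

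Of 9 cytokine signalling genes 2 were higher and 3 lower (median ratio 1.00). Il6st, the shared receptor chain of the LIF family, was at 621 against 120 CPM and the chemokine Cxcl14 at 149 against 34.6 CPM, whereas Lifr (60.6 against 153 CPM), Socs3 (99.9 against 351 CPM) and Nfkbia were lower. Interferon response genes were lower in 2 of 3 against clusters 3 and 8 (median 0.367) and in 5 of 7 against the rest (median 0.112). Of the antigen presentation genes none of 4 passed the limits (median 0.631), and against the rest B2m (137 against 299 CPM) and Psmb8 were lower of 5.

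Cell cycle genes were mostly too low to compare: Top2a was higher than in clusters 3 and 8 (65.1 against 10.9 CPM, of 3 compared, median 1.15), and 4 of 6 were lower than in the rest (median 0.352). Of 17 immediate early genes, which respond to tissue dissociation, none was higher and 4 were lower, such as Atf3 (238 against 620 CPM; median 0.749). Fos and Nr4a1 were 2.12 and 2.29 times the rest.

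Low counts of the cluster's products were found across the CO library. In CO cluster 7, 1 cell of 77400 UMIs held 760 of the 812 Prss29 UMIs, without which the cluster was at 13.5 CPM. In clusters 3 and 8, 7 cells had at least 10 Prss29 UMIs and 15 at least 10 Spink1 UMIs, the highest at 65 and 70 UMIs, in the same cell. The number of Prss28 UMIs per Prss29 UMI was 0.308 in cluster 13 (0.302 to 0.313), 0.210 and 0.241 in clusters 3 and 8, 0.318 in the luminal clusters, 0.293 in stromal, 0.248 in mesothelial and 0.361 in endothelial cells and 0.154 in lymphocytes (0.0995 to 0.230). Without the cell that held the most Prss29 UMIs, the ratio was 0.223 in the luminal clusters (0.185 to 0.266), 0.253 in lymphocytes (0.145 to 0.424) and 0.330 in cluster 8 (0.214 to 0.496). Whether these UMIs came from the cells themselves was not tested.

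In the DES library the cluster's products were nearly all missing or low. Prss29, Prss28 and Spink1 had no UMI in the 4608 clustered DES epithelial cells, and in thinned DES cells a Prss29 UMI was found in 0 of 4559, which allows a share of cells with a UMI at this depth of up to 0.0658% (3 cells) and does not limit the share that expresses the gene. All 16312 DES cells together held 5 Prss29, 1 Prss28 and 0 Spink1 UMIs. Other leading genes had many UMIs over all DES cells, such as Clu (83056) and Rnase4 (42844).

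Of the 36 leading genes 35 were at least 2-fold lower in the clustered DES epithelial cells than in cluster 13, where 213 of all 1299 genes at 100 CPM were (16.4%). Of the 36, 23 were at least 10-fold lower, 5 of them with no UMI (Obp2a and Spaca7 beside the 3 above), and 31 of 36 were at least 2-fold lower in every DES cluster. Of all 1299 genes, 3.46% were at least 10-fold lower, 0.385% had no UMI and 8.01% were at least 2-fold lower in every DES cluster. Clu was at 56.6 CPM in DES against 4695 CPM in cluster 13, and Sox9 at 53.1 against 885 CPM. The 1 leading gene not 2-fold lower in the pooled DES cells was Id2, an inhibitor of bHLH factors, at 140 against 153 CPM. The 5 genes not 2-fold lower in every DES cluster were Id2 (up to 354 CPM in DES cluster 8), Igfbp5 (up to 155 CPM, DES cluster 7) and Agr2 (up to 133 CPM, DES cluster 5), each above its level in cluster 13, and Kctd14 and Wnt5a, which were below it. The leading genes were chosen as high in cluster 13, so a lower level elsewhere follows in part from the choice. Set against all other clustered CO epithelial cells, the leading genes went both ways in DES cells. Id2 (140 against 33.4 CPM), Kctd14 (51.3 against 13.9 CPM) and Dkk3 (4.40 against 0.488 CPM) were higher in DES cells. Clu (56.6 against 180 CPM), Sox9 (53.1 against 155 CPM) and Scgb3a1 (0.311 against 10.6 CPM) were lower.

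Foxa2 was present in DES cells without the proteases. The clustered DES epithelial cells were at 16.2 CPM (15.6 to 16.8), above the 6.53 CPM of the other CO clusters and below the 82.0 CPM of cluster 13, and 4.34% of thinned DES cells had a Foxa2 UMI. Over the DES clusters Foxa2 ranged from 5.86 CPM (DES cluster 1) to 68.9 CPM (DES cluster 14, 58.8 to 80.2), whose interval overlaps that of cluster 13 (64.3 to 103).

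The sections are samples on which the cluster was not formed. They held 12506177 and 11032957 UMIs in CO (1433 and 1834 spots) and 9117099 and 9880021 UMIs in DES (1575 and 1357 spots). Section UMIs were summed over all spots and tested in edgeR (quasi-likelihood), and p-values were adjusted by Benjamini-Hochberg over all 14098 genes tested. With 2 sections against 2, no exact permutation test could pass 0.05, so these p-values depend on a spread estimated jointly over genes. In a whole section, fewer cells of a type and less RNA per cell cannot be told apart. The part of tumour tissue in the DES section values was not tested. The paper reports a substantial fold in the tissue of a CO section, and limited cluster identification in a DES section. For most of its analyses it therefore used the other section of each group. The main fit here kept all sections. The part of these quality problems in the differences between sections of a group was not tested.

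The defining products of cluster 13 were barely captured in the sections. Prss29 had 3 and 1 UMIs in the CO sections and 0 in both DES sections, Prss28 0 in all 4, and Spink1 0 and 26 in CO and 0 in both DES sections. The CO sections were therefore not alike, and a difference from DES was not detectable for these genes at this depth. Obp2a had 27 and 3 UMIs in CO and none in DES. Other gland genes also differed between CO sections 1 and 2: Prap1 was at 2925 and 30907 CPM and Sult1d1 at 8.80 and 73.7 CPM. Klk1 went the other way, at 4.64 and 2.54 CPM.

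Scgb3a1 was at 78.0 and 2.45 CPM in the CO sections and 0.219 and 0.405 CPM in the DES sections. Both CO sections were above both DES sections, but the CO sections differed by more than 10-fold, and the edgeR adjusted p was 0.119 (log2 fold change -7.17, SE 2.05). Clu was at 228 and 69.5 CPM in CO and 190 and 200 CPM in DES, so the groups overlapped (log2 fold change 0.17, SE 0.57, edgeR adjusted p = 0.892). Sox9 was at 19.8 and 18.1 CPM against 20.6 and 30.8 CPM (log2 fold change 0.24, edgeR adjusted p = 0.654).

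Of the 29 leading genes tested in sections, 1 rose and 1 fell in DES, where 376 (2.67%) and 371 (2.63%) of all genes did. The share of leading genes that passed is thus near the share of all genes. Prss28, Prss29, Ttr, Spink1, Obp2a, Bpifb5 and Spaca7 were too low to be tested. Some tested genes, such as Igfbp4 and Gas6, were higher in stromal or mesothelial CO cells than in cluster 13, so section values do not stand for cluster 13 alone. The median log2 fold change of the 29 tested leading genes was 0.03, against -0.01 over all genes. At an unadjusted p under 0.05, 6 of 29 were lower and 3 higher, where 12.8% and 11.6% of all genes were. By DESeq2, 6 of 32 were lower and 2 higher after adjustment, where 6.23% and 5.26% of all genes were.

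Cited4, a coactivator that binds CBP/p300, fell: 46.2 and 49.9 CPM in CO against 13.7 and 16.6 CPM in DES (log2 fold change -1.87, SE 0.19, edgeR adjusted p = 0.0212). Crim1, a membrane protein that binds growth factors of the BMP family, rose from 9.92 and 14.2 CPM to 43.7 and 46.3 CPM (log2 fold change 1.69, SE 0.23, edgeR adjusted p = 0.0304). In single cells Crim1 was higher in CO endothelial cells (162 CPM) than in cluster 13 (115 CPM).

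Foxa2 rose in the DES sections, from 4.48 and 3.44 CPM in CO to 22.5 and 37.8 CPM (log2 fold change 2.72, SE 0.37, edgeR adjusted p = 0.0308), and both DES sections were above both CO sections. Without either DES section the adjusted p of all 3 genes was above 0.05: 0.0693 and 0.152 for Foxa2, 0.157 and 0.131 for Cited4, and 0.162 and 0.195 for Crim1 (edgeR, without DES section 1 and 2). The log2 fold changes in these fits were 3.05 and 2.24 for Foxa2, -1.72 and -2.06 for Cited4, and 1.76 and 1.60 for Crim1.

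**Figure D5:**
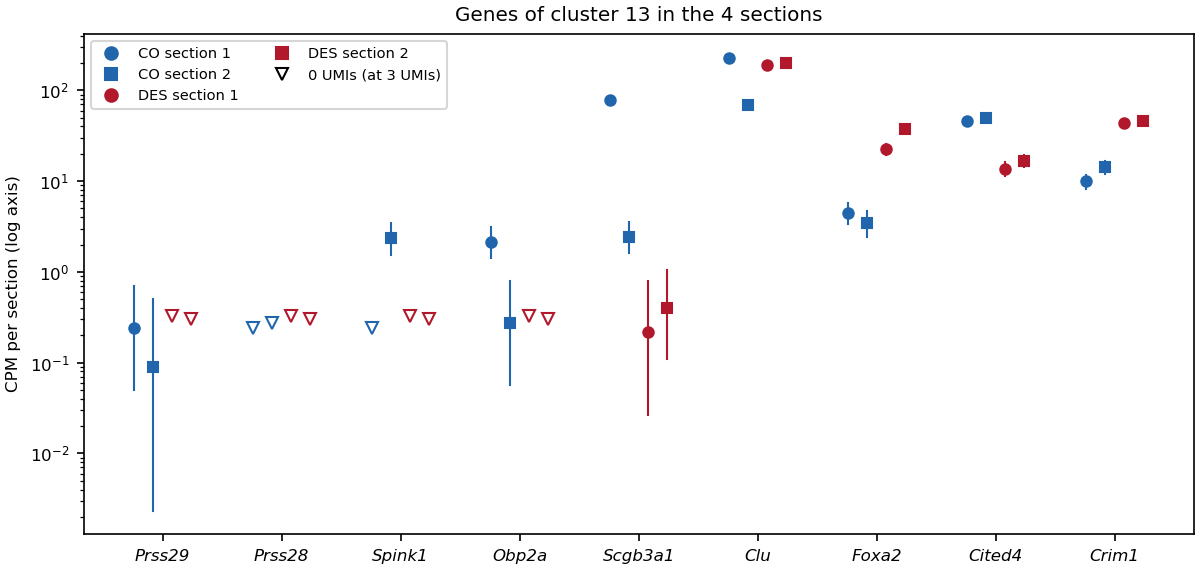
Level (CPM, log axis) of 9 genes in the 2 CO (blue) and 2 DES (red) sections, with exact Poisson 95% intervals; open triangles mark sections with 0 UMIs, drawn at 3 UMIs. Scgb3a1, Obp2a and Spink1 differ between the CO sections, Cited4 is higher in both CO sections and Foxa2 and Crim1 in both DES sections.

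Within the CO sections the authors grouped spots into 10 clusters. Some leading genes were widespread, such as Igfbp4 in 80.7% and Clu in 55.4% of the spots of CO section 1, and others lay mostly in 1 spot cluster. In CO section 1, spot cluster 5 (140 spots, 8.87% of the section's UMIs) had the highest level for 17 of the 28 leading genes with at least 20 UMIs, and for 10.2% of all genes with as many. It held 765 of 976 Scgb3a1 UMIs (78.4%), 267 of 409 of Gpx2, 21 of 27 of Obp2a, 21 of 30 of Bpifb5 and 1302 of 2848 of Clu. The same spots held 26 of the section's 56 Foxa2 UMIs and no Spink1 UMI.

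In CO section 2 the genes were spread more evenly: spot cluster 4 (206 spots, 11% of UMIs) was highest for 6 of 29 leading genes, against 4.21% of all genes, and held 13 of the 26 Spink1 and 17 of the 27 Scgb3a1 UMIs. These spot clusters were singled out after their values were seen, and their spots were grouped by these very counts, so the shares are descriptions. In DES sections 1 and 2, no spot cluster was highest for more than 7 of the 28 and 7 of the 27 leading genes with at least 20 UMIs. The spot clusters that reached this number held 2 and 47 spots and 0.161% and 0.980% of the UMIs. The share of all genes highest in them was not computed.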

How the data were processed

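The members and gene lists were chosen with earlier results of these data known. The deposited single-cell and spatial counts are UMI counts with no normalization. The authors made them with Cell Ranger 3.0.1 and Space Ranger 1.2.2 on mm10. They checked for swapped barcodes (DropletUtils), dropped doublets (scran) and clustered cells in Seurat; no further doublet step was run here. UMIs were summed per cluster and scaled to CPM, so that products holding a large share of a group lower all its other values. Genes with at least 50 CPM in either group were compared, and a ratio of at least 2 or at most 0.5 was counted. Shares used cells thinned to 3000 UMIs (fixed seed), with Clopper-Pearson 95% intervals. Ratio intervals are exact conditional ones, and groups without a UMI were set to 3 UMIs over the group.

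Sections were summed over all spots and fitted with edgeR 4.0.16 (TMM, filterByExpr, quasi-likelihood test, condition only, threshold 0.05) in R 4.3.3; the fit was checked on simulated counts. Labels give sections as separate samples, and their numbers follow the order of deposit. Named genes are the 4 markers, the 20 leading genes with the largest smaller ratio, the 10 lowest against clusters 3 and 8 and 5 lowest against the rest, up to 4 members per direction of each list with the highest CPM, and in sections the markers, leading genes past the threshold and the 5 of highest CPM; genes at 0 UMIs, those of the Slingshot comparison and others outside the rule were chosen after their values were seen. Gene positions are from GENCODE on GRCm38 (mm10). The alternatives tried were other totals, weights, filters, members, comparison cells and thinning, and for sections DESeq2 1.42.0, its size factors, no filter, each section left out and the section number as a block. Keeping only cells in cluster 19 of the joint clustering, cells with at least 5000 UMIs, or all but the cell that holds the most UMIs of a gene, was added after seeing the data.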

Additional observations from a re-analysis of the deposited data

Results flagged for a closer look

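Signal of cluster 13 was also found outside the clustered cells. Of the 20134 CO cells without a cell type in the metadata, which enter no comparison above, 43 had at least 1% of their UMIs, and at least 20 UMIs, from Prss29. The same rule took 48 of the 62 cells of cluster 13, 0 of the 2521 other clustered CO cells, 1 mesothelial cell, 1 lymphocyte and 0 of the 16312 DES cells. The CO cluster 7 cell with 760 of its 77400 UMIs from Prss29 fell just short of the 1% limit. The 43 cells had a median of 407 Prss29 UMIs (4.09% of UMIs), 12719 UMIs in all and 6.21% mitochondrial UMIs, against 6.42% mitochondrial UMIs in the 48 cells of cluster 13. They held 83.9% of the Prss29 UMIs of all cells without a type. Although chosen by Prss29 alone, they had 42 cells with Spink1, Clu at 4270 CPM and Sox9 at 701 CPM, and 33 of the 35 leading genes other than Prss29 (94.3%) lay within 2-fold of cluster 13, as did 98.7% of all 1299 genes at 100 CPM or more in it. Their summed stromal list was at 3269 CPM and their mesothelial list at 669 CPM, against 550 and 257 CPM in cluster 13, with Dcn at 1998 against 275 CPM. The part of other cells' RNA in leaving these cells without a type was not tested.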

How the results depend on the processing

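With totals that leave out the 20 most abundant genes, 55 genes led the cluster (all 36 among them) and 535 were higher than in clusters 3 and 8. With a minimum of 10 CPM, 1143 were higher and 687 lower than in clusters 3 and 8, and 1198 and 1055 than in the rest, because more genes are compared. With equal weight per cell 34 genes led, 30 of them shared. The other alternatives for cells gave 34 to 37 leading genes. The Foxa2 share was 43.5% without thinning and 27.8% at 5000 UMIs. Timp3 was 3.03 times cluster 8 alone. Against the luminal clusters alone the ratio turned above 1 for Efhd1 (4.12), Igfbp3 (3.68), Nmb (3.34), Napsa (3.03) and S100g (4.89). It was also above 1 for Car4 (1.28), Hsd11b1 (1.77), Klk1 (1.75) and Olfm1 (1.12), with 1, 4, 5 and 12 UMIs in cluster 13. For these last genes the interval in cluster 13 contains the luminal level. The developing gland clusters are left out of this comparison. The Prap1 ratio to clusters 3 and 8 was 0.0103 with only the cells in cluster 19 of the joint clustering.

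In sections DESeq2 gave 6 leading genes lower and 2 higher in DES. Leaving out 1 section gave 0 to 8 lower and 0 to 5 higher: none without DES section 1 or 2, 5 and 5 without CO section 1, and 8 and 3 without CO section 2. Over all genes the fits gave 0 lower and 14 and 3 higher without DES section 1 and 2, 1508 and 1311 without CO section 1, and 1188 and 1148 without CO section 2. The cause was not tested. With the section number as a block 1 was lower and 1 higher, and over all genes 298 rose and 229 fell; the numbers do not pair sections (correlation of deviations -0.025). Leaving out 1 section turned the sign of the log2 fold change of 12 leading genes, none of which passed the test with all sections: Krt83 (range -1.90 to 0.38), Clu (-0.46 to 1.31), Fbln7 (-0.096 to 0.17), Gpx2 (-1.67 to 0.086), Kctd14 (-0.011 to 1.29), Pck1 (-2.09 to 1.86), Rnase4 (-0.35 to 0.55), Dnajc10 (-0.18 to 0.034), Sox9 (-0.14 to 0.51), Bmyc (-0.95 to 0.047), Ncald (-0.72 to 0.24) and Cxcl14 (-0.17 to 1.70). Cited4, Crim1 and Foxa2 passed under 6 of 8 alternatives, with adjusted p from 7.46e-08 to 0.157, 1.02e-05 to 0.195 and 1.48e-07 to 0.152. The limits are 1 library per condition, a pool of 2 mice, clusters formed on the same counts, and 62 shallow cells, in which a gene with 0 UMIs may be at up to 3.37 CPM.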

Other observations

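The 28 cells of cluster 13 in Slingshot cluster 5 also had more of several products that are in none of the lists above, which were chosen after their values were seen. Sftpd, the collectin surfactant protein D, was at 669 CPM in them and 145 CPM in the 33 cells of Slingshot cluster 7. Guca2b, the hormone uroguanylin, was at 446 against 100.1 CPM, and Wfdc10, a WAP-domain gene, at 454 against 52.3 CPM. Abcb1b, a drug exporter, had 25 UMIs against 1 (ratio of cluster 7 to cluster 5 0.0144, 0.000350 to 0.0878). In the direction of cluster 7, Gdf15, a stress-induced member of the TGF-beta family, was at 157 against 25.7 CPM and Ceacam1, an adhesion molecule, at 231 against 68.6 CPM. The 2 sets differ in depth, and the part of depth in these values was not tested.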
